A study of Homo sapiens with 5 samples.

Results

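LAMP3, NIBAN1 and STK32A are 3 genes, of 57992 in the deposited count table, chosen by their counts per library, which were low in Ishikawa cells co-cultured with adipocytes and high in the other libraries of the series. Ishikawa is a human cell line in long use, grown from an endometrioid cancer of the endometrium. The libraries fall into 3 groups of that line. Co-culture with EX527, an inhibitor of the deacetylase SIRT1, has 2 libraries, co-culture without the inhibitor has 2, and monoculture, the cells grown alone, has 1. In both co-cultured groups the cancer cells sat for 3 days under mature adipocytes in a transwell with pores of 0.4 µm, so both cell types shared medium without touching. The adipocytes had been differentiated from preadipocytes, whose species and source the labels do not give. The dose of EX527 is not in the labels either, and no library holds cells treated with EX527 in monoculture. Each library was made from poly(A) RNA and read to a total of 45653845 to 52269963 counts.

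The choice of genes used the levels in all 3 groups. Their differences between co-culture with EX527 and co-culture, and between co-culture and monoculture, are therefore given as values without a test. The choice did not set the sign of the difference between co-culture with EX527 and monoculture, which carries a test. It did ask for high levels in both of these groups, read in the same libraries. That test is therefore not independent of the choice. Nothing in the labels says that replicates were separate cultures, so a p-value measures only the spread between these libraries.

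The 3 genes are not relatives. LAMP3, also called DC-LAMP or CD208, is a heavily glycosylated membrane protein of lysosomes, best known from maturing dendritic cells and from surfactant-producing lung cells. In human cancer cells it is known as a gene induced by low oxygen and by the branch of the unfolded protein response that runs through the kinase PERK, the translation factor eIF2alpha and the transcription factor ATF4. NIBAN1, formerly FAM129A, is a cytoplasmic stress protein known from endoplasmic reticulum stress and from several carcinomas, and a substrate of the kinase AKT that has been linked to eIF2alpha phosphorylation and cell survival. STK32A, or YANK1, is a little studied serine/threonine kinase of the AGC class.

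The genes lie on different chromosomes. In GENCODE 44 on GRCh38, LAMP3 runs from 183122215 to 183163839 on the minus strand of chromosome 3, NIBAN1 from 184790724 to 184974508 on the minus strand of chromosome 1, and STK32A from 147234963 to 147387855 on the plus strand of chromosome 5. Merged exons span 3.785 kb in LAMP3, 8.33 kb in NIBAN1 and 7.916 kb in STK32A. No annotated gene overlaps LAMP3 or STK32A. The small RNA pseudogene RNU7-13P lies inside NIBAN1 on the same strand and held at most 2 reads in any library. The count of each of the 3 genes is therefore little exposed to reads of an overlapping gene in that annotation.

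Of the 3 genes, NIBAN1 has an entry in the RefSeq promoter table. It is shown because the 3 genes share a level profile, and covers 250 bases before the annotated start and 50 from it on, in GRCh38.p14, chr1:184974459-184974758, minus strand, read 5′ to 3′. Capitals mark CCACG on either strand, the part of the endoplasmic reticulum stress element that ATF6 reads.
NIBAN1 promoter: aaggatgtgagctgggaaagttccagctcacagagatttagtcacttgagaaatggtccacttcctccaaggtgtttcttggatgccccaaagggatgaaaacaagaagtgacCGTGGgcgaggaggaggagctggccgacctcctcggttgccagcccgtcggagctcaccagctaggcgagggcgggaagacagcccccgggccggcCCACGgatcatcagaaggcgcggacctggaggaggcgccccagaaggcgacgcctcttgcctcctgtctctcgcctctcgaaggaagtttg
CCACG was found 2 times, 137 bases before the start as CGTGG and 41 bases before it as CCACG, and 38.1% of the 35116 promoters of the table hold it on one strand or the other. The other motifs searched on both strands were TGATGNAAT (the C/EBP-ATF composite element, in 0.991% of promoters), TGACG (cAMP response element core, 24.6%), ACGTG (hypoxia response element core, 21.4%), CACGTG (the E-box read by TFEB, which contains ACGTG, 7.26%), CCAAT (read by NF-Y, 34.6%) and TGANTCA (AP-1, 7.71%). None of those letters occurs in this window. Bases G and C make up 60.7% of it, against a median of 58.7% over all promoters.

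LAMP3 was read 6613 and 7825 times in co-culture with EX527, 348 and 352 times in co-culture and 7207 times in monoculture. As CPM, reads scaled to library size with TMM factors that correct for library composition, these are 117 and 167 CPM, 7.82 and 7.23 CPM, and 166 CPM. Both co-culture libraries lie far under the other 3, and the groups do not overlap. The mean with EX527 was 142 ± 35.3 CPM (SD, n = 2), 18.8-fold that of co-culture at 7.52 ± 0.422 CPM (SD, n = 2). Between single libraries that ratio ran from 14.9 to 23.1. Co-culture held 4.53% of the monoculture level.

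NIBAN1, the most deeply read of the 3, had 9715 and 10144 reads with EX527, 862 and 883 in co-culture and 10173 in monoculture. The scaled levels were 172 and 216 CPM with EX527, 19.4 and 18.1 CPM in co-culture and 235 CPM in monoculture. The order is monoculture highest and co-culture lowest, again without overlap. The mean of 194 ± 31.4 CPM with EX527 (SD, n = 2) was 10.3-fold that of co-culture, 18.8 ± 0.884 CPM (SD, n = 2), and single-library ratios ran from 8.85 to 11.9. Co-culture held 8.0% of the monoculture level.

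STK32A, the least abundant, had 2467 and 1793 reads with EX527, 99 and 116 in co-culture and 1004 in monoculture. The levels were 43.6 and 38.2 CPM with EX527, 2.23 and 2.38 CPM in co-culture and 23.1 CPM in monoculture. Here both EX527 libraries are above monoculture, which in turn is above both co-culture libraries. The mean with EX527 was 40.9 ± 3.8 CPM (SD, n = 2), 17.7-fold that of co-culture at 2.30 ± 0.110 CPM (SD, n = 2). Single-library ratios ran from 16 to 19.6, and co-culture held 9.95% of the monoculture level. Even its smallest count of 99 has an exact 95% Poisson interval of 80.5 to 121 reads, which covers counting error only. In bulk RNA, fewer cells that express a gene and less of its RNA per cell cannot be told apart.

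**Figure D1:**
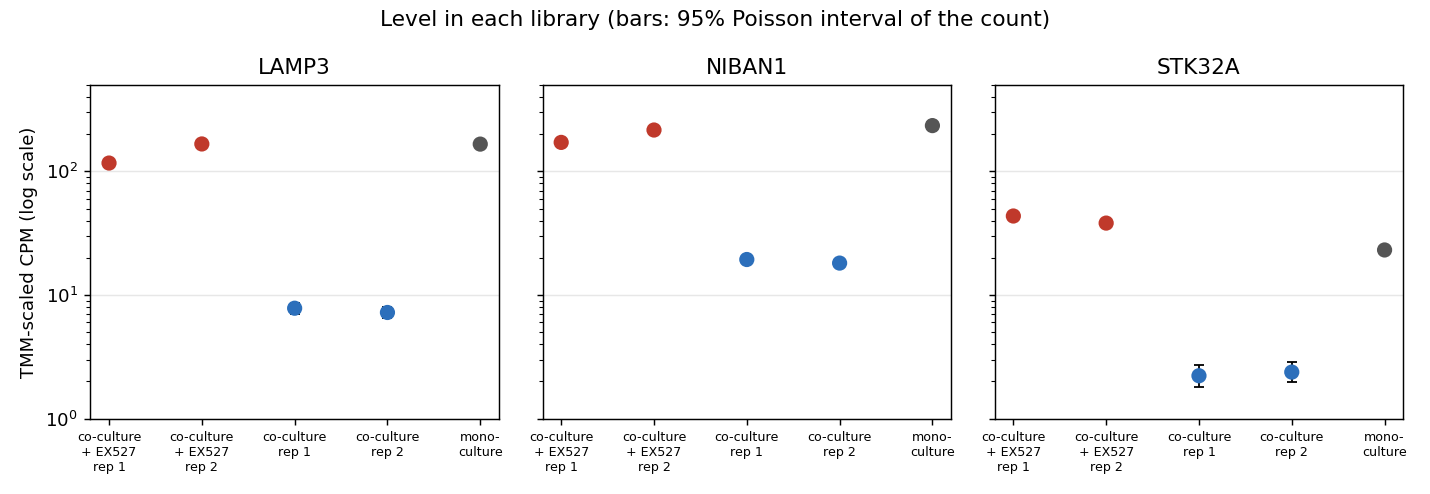
Level of LAMP3, NIBAN1 and STK32A in each of the 5 libraries, in TMM-scaled CPM on a log axis, with 95% Poisson intervals of the counts as bars (mostly smaller than the points). Both co-culture libraries, at 7.82 and 7.23 CPM for LAMP3, 19.4 and 18.1 CPM for NIBAN1 and 2.23 and 2.38 CPM for STK32A, lie under every library of the other groups.

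Replicates agreed to unequal degrees. In co-culture the ratio of replicate 1 to replicate 2 was 1.08 for LAMP3 (95% interval from the exact binomial of both counts 0.931 to 1.26), 1.07 for NIBAN1 (0.972 to 1.18) and 0.935 for STK32A (0.707 to 1.23), so each pair differed by less than counting error. With EX527 the ratio was 0.701 for LAMP3 (0.678 to 0.724), 0.794 for NIBAN1 (0.772 to 0.817) and 1.14 for STK32A (1.07 to 1.21), all outside counting error. LAMP3 and NIBAN1 were lower in EX527 replicate 1 and STK32A was higher in it. That library stands apart over the whole table. It had 10 reads or more for 33325 genes, against 26022 to 27103 in the other 4, and among 11232 well-read genes (mean log2 CPM of 4 or more) its pair differed with an SD of 0.605 on the log2 scale, where the co-culture pair differed with one of 0.112. Without EX527 replicate 1, the log2 fold changes against co-culture were 4.48 for LAMP3, 3.53 for NIBAN1 and 4.05 for STK32A. With all 5 libraries they were 4.23, 3.37 and 4.15.

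Low co-culture levels were common in the table, but rarely this low. Both co-culture libraries lay under the other 3 in 6851 of 34658 genes that passed the filter on low counts, or 19.8%, and over the other 3 in 7633. At least 4-fold under, on the log2 CPM scale with a prior count of 2, were 178 genes or 0.514%. The gap between the highest co-culture library and the lowest of the others was 14.9-fold for LAMP3, 9.57-fold for STK32A and 8.83-fold for NIBAN1. By that gap LAMP3 stood at rank 4 of all genes tested, STK32A at 26 and NIBAN1 at 31. Among the 16029 genes whose log2 CPM averaged 2 or more, they stood at ranks 1, 5 and 7. These ranks describe the choice and support nothing beyond it.

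Co-culture with EX527 was also set against monoculture. STK32A was 1.77-fold higher with EX527, in 2 of 2 libraries, with a log2 fold change of 0.82 (SE 0.26). The edgeR quasi-likelihood test, with Benjamini-Hochberg adjustment over all 34658 genes, gave an adjusted p = 0.614, so the difference did not pass. LAMP3 had a log2 fold change of -0.23 (SE 0.29, edgeR adjusted p = 0.731) and NIBAN1 one of -0.28 (SE 0.25, edgeR adjusted p = 0.653). The monoculture level of LAMP3 was within 1 SD of the EX527 pair, and that of NIBAN1 was above both libraries of the pair. No gene of the table was called in this comparison by edgeR, at 0% of genes, although 2555 had an unadjusted p under 0.05. DESeq2 called 100 genes or 0.289%, with 0.0173% higher and 0.271% lower with EX527, without LAMP3 or NIBAN1, and gave STK32A no adjusted p. In edgeR, calls for the 3 genes came only with an EX527 library left out. Without replicate 1 STK32A was called at 0.68 (edgeR adjusted p = 2.77e-06), and without replicate 2 at 0.91 (edgeR adjusted p = 7.79e-08). Without replicate 2, LAMP3 at -0.51 (edgeR adjusted p = 2.56e-05) and NIBAN1 at -0.45 (edgeR adjusted p = 8.70e-05) were called as well. Over all genes these fits called 33.8% without replicate 1 and 62.2% without replicate 2, and take it that single libraries vary as little as the co-culture pair.

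Ratios between the genes within a library do not depend on scaling between libraries. Per kb of exon, LAMP3 stood to NIBAN1 as 1.5 and 1.70 with EX527, 0.888 and 0.877 in co-culture and 1.56 in monoculture. LAMP3 was thus above NIBAN1 per length in 3 libraries and under it in both of co-culture. LAMP3 stood to STK32A as 5.61 and 9.13 with EX527, 7.35 and 6.35 in co-culture and 15.0 in monoculture. NIBAN1 stood to STK32A as 3.74 and 5.38 with EX527, 8.27 and 7.23 in co-culture and 9.63 in monoculture. Both ratios to STK32A were highest in monoculture. The EX527 libraries gave the lowest ratios of NIBAN1 to STK32A, and for LAMP3 to STK32A they fell on either side of co-culture.

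**Figure D2:**
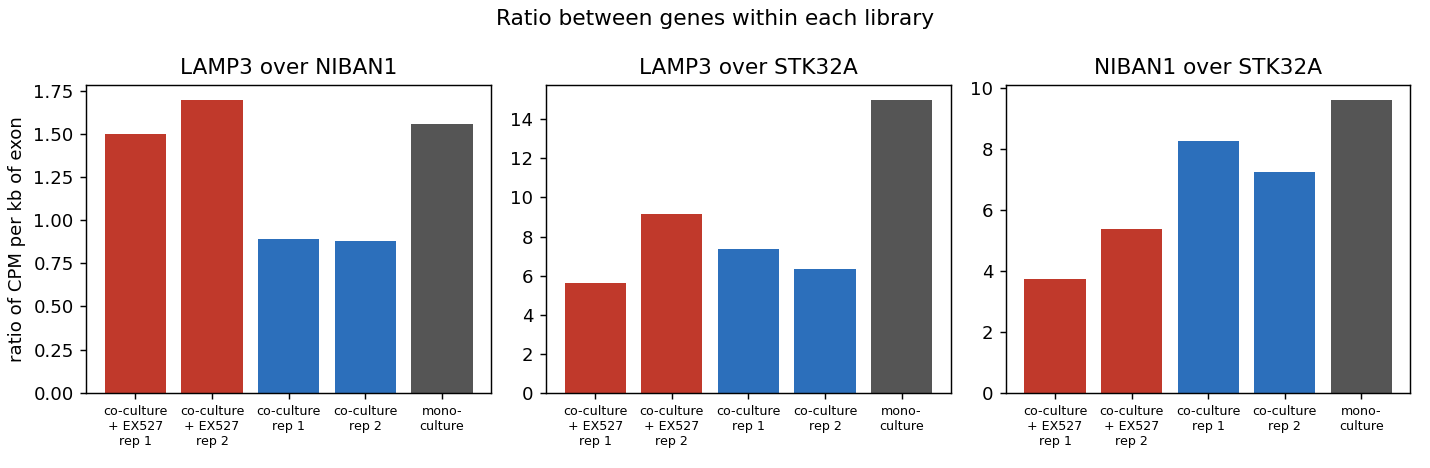
Ratio of CPM per kb of exon between pairs of the 3 genes in each library, as bars from 0. LAMP3 over NIBAN1 is 0.888 and 0.877 in co-culture and 1.5 to 1.70 elsewhere, and both ratios to STK32A are highest in monoculture, at 15.0 and 9.63.

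The genes with the nearest level profile were found by the root-mean-square difference of log2 CPM, centred on each gene's own mean, over the 5 libraries. Of 14225 genes compared, with log2 CPM averaging 2 or more and a symbol that is not a clone name, EEF1A2 was nearest to LAMP3, at a difference of 0.20 where the median gene was at 2.18. EEF1A2, a translation elongation factor of muscle and neurons, was read at 22 and 40.7 CPM with EX527, 2.11 and 1.83 CPM in co-culture and 45.8 CPM in monoculture. The next were CREB5, a bZIP transcription factor, at 0.39, NIBAN1 at 0.41, STK32A at 0.50 and the growth arrest gene GADD45A at 0.50. That the other chosen genes are near restates the choice, which used the same libraries.

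PDE2A, a cyclic nucleotide phosphodiesterase, was nearest to NIBAN1 at 0.13, with 13.5 and 17.5 CPM with EX527, 1.84 and 1.75 CPM in co-culture and 19.7 CPM in monoculture. GADD45A followed at 0.15, the stress transcription factor ATF3 at 0.22, the membrane adaptor PAG1 at 0.24 and the circadian repressor BHLHE41 at 0.26. From NIBAN1, LAMP3 stood only at rank 15 and STK32A at rank 23. AREG, a ligand of the EGF receptor, was nearest to STK32A at 0.21, with 21.4 and 12.7 CPM with EX527, 1.03 and 0.924 CPM in co-culture and 10.9 CPM in monoculture. BAHCC1 at 0.42, CREB5 at 0.46 and GADD45A at 0.48 were also among its nearest 5, with NIBAN1 at rank 6 and LAMP3 at rank 7. GADD45A is the one gene outside the 3 that was among the nearest 5 of all 3. Without EX527 replicate 1 it stayed so for NIBAN1 only, at rank 4, and stood at rank 7 for LAMP3 and 8 for STK32A. Profiles over the 4 libraries without EX527 replicate 1 kept 4 of the nearest 5 for LAMP3, 3 for NIBAN1 and 1 for STK32A, that one being AREG. These likenesses rest on 5 libraries and are descriptions.

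**Figure D3:**
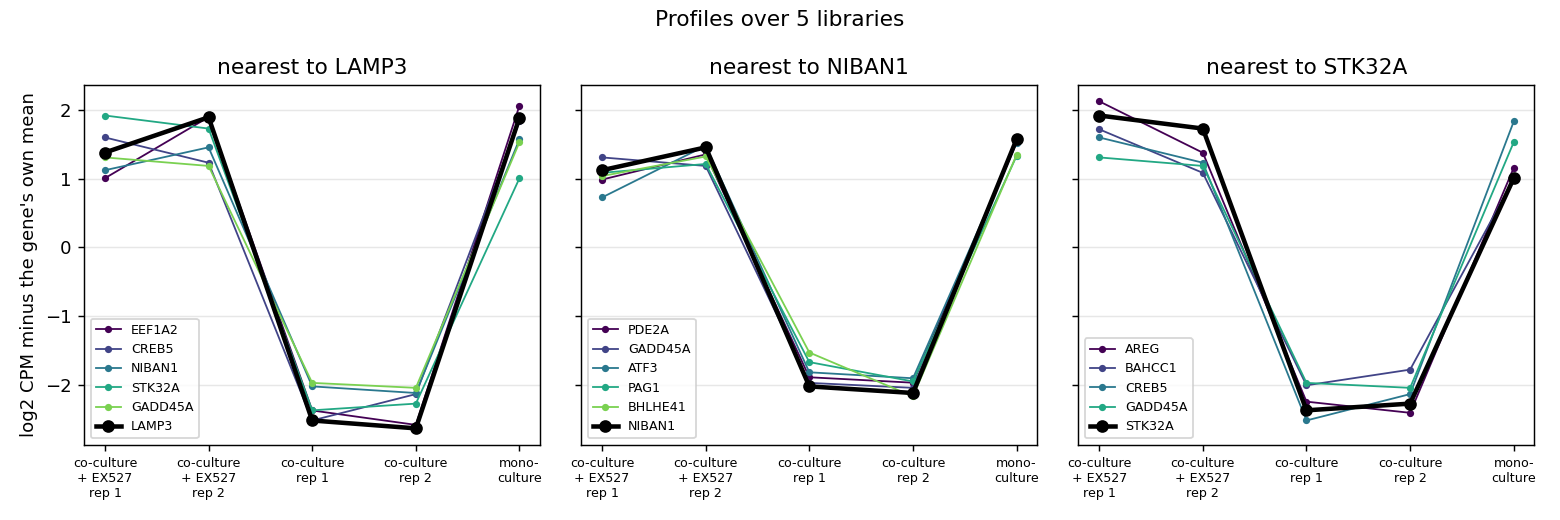
Log2 CPM minus the gene's own mean over the 5 libraries, for each of the 3 genes (black) and the genes with the nearest profile named in the text (coloured). All lines drop in both co-culture libraries. Only in the STK32A panel is the black line higher in both EX527 libraries than in monoculture.

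Gene family relatives were read beside the 3 genes. Of 8 relatives 7 passed the filter on low counts, and 1 of them, STK32B, had both co-culture libraries under the other 3, or 14.3% against 19.8% of all genes tested. LAMP1 and LAMP2, the abundant structural proteins of the lysosome membrane, were read at 154 and 241 CPM and at 64.3 and 89.7 CPM with EX527, against 298 and 274 CPM and 98.5 and 95.7 CPM in co-culture. Both thus lay under co-culture where LAMP3 lay over it, with log2 fold changes of -0.54 (SE 0.27, edgeR adjusted p = 0.32) and -0.34 (SE 0.23, edgeR adjusted p = 0.413). The median of the 3 LAMP relatives tested was -0.34, and -0.11 without EX527 replicate 1. The macrophage-associated CD68 stayed between 1.80 and 2.87 CPM, and LAMP5, of neurons and plasmacytoid dendritic cells, held 6 reads or fewer in each library.

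NIBAN2 was read at 36.5 and 150 CPM with EX527, 241 and 209 CPM in co-culture and 127 CPM in monoculture. With EX527 against co-culture its log2 fold change of -1.27 (SE 0.65, edgeR adjusted p = 0.328) is opposite in sign to that of NIBAN1, and it was -0.58 without EX527 replicate 1. NIBAN3, expressed in B cells, stayed at 2.95 and 1.45 CPM with EX527 and under 1 CPM elsewhere. STK32B was at 12.4 and 2.68 CPM with EX527, 1.17 and 1.42 CPM in co-culture and 1.96 CPM in monoculture. DESeq2 called its difference from co-culture (adjusted p = 0.00373) and edgeR did not (adjusted p = 0.225), and the log2 fold change of 2.56 was 1.05 without EX527 replicate 1. STK32C, at 21 and 16.5 CPM with EX527, 14.4 and 13.6 CPM in co-culture and 14 CPM in monoculture, had a log2 fold change of 0.42 (SE 0.23, edgeR adjusted p = 0.349). None of the 7 was called against monoculture in co-culture by either tool, where the smallest edgeR adjusted p was 0.717.

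The nearest coding genes on the chromosome were read likewise. Of 12 such genes, 2 on each side of each member, 11 passed the filter, and in 1 of them, C1orf21, both co-culture libraries lay under the other 3, or 9.09% against 19.8% of all genes tested. C1orf21, 161.7 kb from NIBAN1 on the side of lower coordinates, was at 44.9 and 33.2 CPM with EX527, 10.9 and 10.2 CPM in co-culture and 51.0 CPM in monoculture. Its log2 fold change was 1.89 with EX527 against co-culture (SE 0.25, edgeR adjusted p = 0.0826, DESeq2 adjusted p = 9.28e-07) and -2.27 in co-culture against monoculture (SE 0.28, edgeR adjusted p = 0.122, DESeq2 adjusted p = 1.47e-06). EDEM3, which trims sugars from misfolded glycoproteins and lies 35.8 kb from NIBAN1, between it and C1orf21, was at 42.0 and 54.5 CPM with EX527, 44.8 and 45.7 CPM in co-culture and 90.8 CPM in monoculture. DESeq2 called it as lower in co-culture than in monoculture (log2 fold change -1.0 in edgeR, DESeq2 adjusted p = 0.0288). MCCC1, 6.1 kb from LAMP3, was at 49.8 and 62.0 CPM with EX527 and at 97.1 and 97.3 CPM in co-culture, on the other side of co-culture from LAMP3. DPYSL3, 3.0 kb from STK32A, stayed at 3.00 to 5.44 CPM. Of the 11 genes edgeR called 0 in both comparisons, with smallest adjusted p-values of 0.0826 and 0.122, and DESeq2 called 1 as higher with EX527, where it called 5.45% of all genes, and 2 as lower in co-culture, where it called 4.35%.

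**Figure D4:**
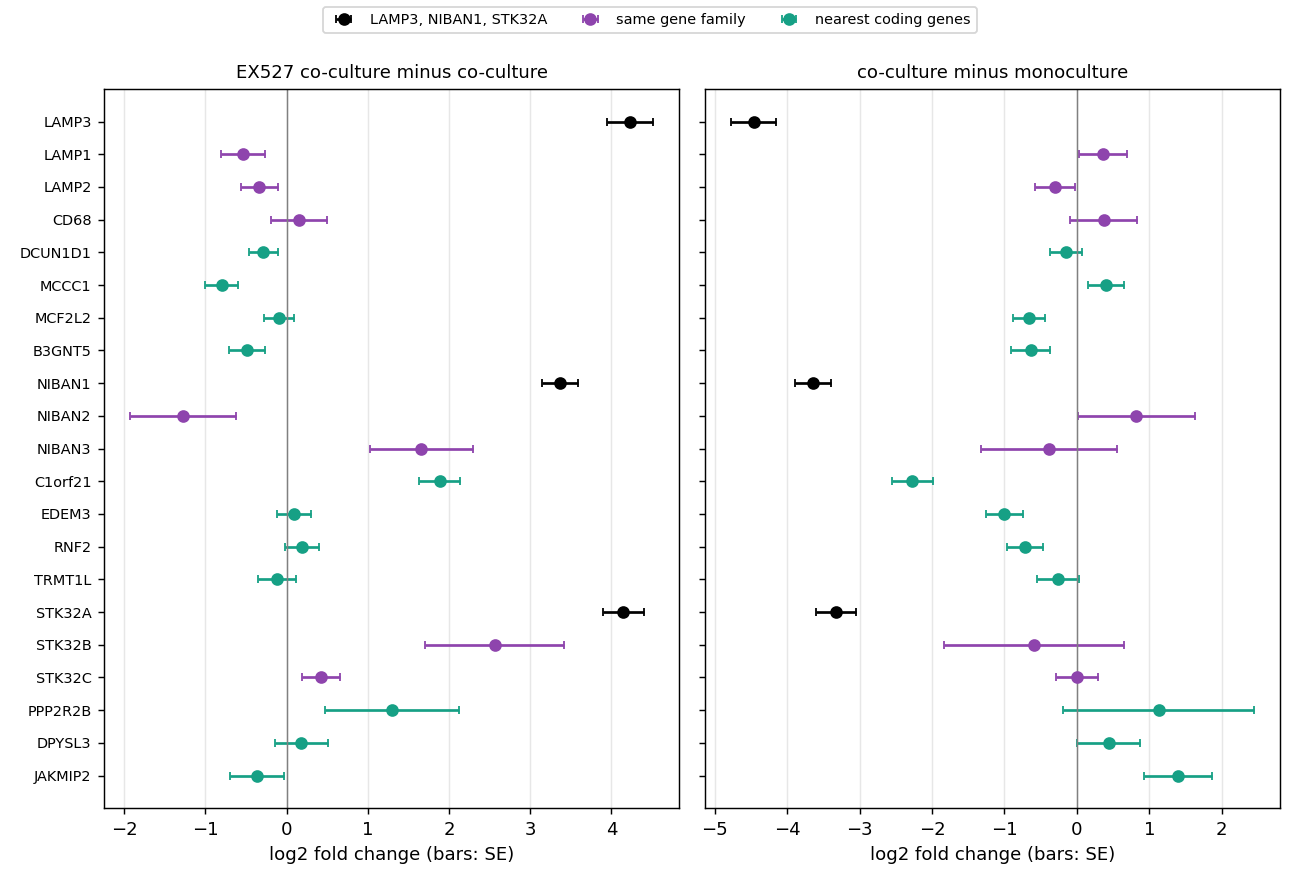
Log2 fold change with its SE for the 3 genes (black), their family relatives (purple) and the nearest coding genes (green), for co-culture with EX527 minus co-culture and for co-culture minus monoculture. Both comparisons served to choose the 3 genes, so their SE bars are no test. The 3 genes stand at 3.37 to 4.23 in the first and at -4.46 to -3.33 in the second, and of the others C1orf21 has the most negative value in the second, at -2.27.

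The pathways through which LAMP3 and NIBAN1 are known to be induced were read from gene lists, with edgeR and DESeq2 run over all 34658 genes. Both comparisons use the same co-culture libraries, so their values for a list are not independent and stand side by side. Over all genes, the median log2 fold change was 0.15 for EX527 against co-culture and 0.05 for co-culture against monoculture, and 0.42 and 0.03 with library size alone as the scaling. With all 5 libraries edgeR called 0% of genes in either comparison, with 6702 and 5526 genes under an unadjusted p of 0.05. DESeq2 called 9.63% of genes with EX527, 5.45% as higher and 4.18% as lower, and 7.02% in co-culture, 2.67% as higher and 4.35% as lower. Without EX527 replicate 1, edgeR called 44.2% of genes with EX527, 21.7% as higher and 22.6% as lower, and 53.9% in co-culture, 26.9% as higher and 27.1% as lower.

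The PERK and ATF4 list had a median of 0.53 with EX527 and of -0.83 in co-culture against monoculture. The first was 0.77 without EX527 replicate 1, 0.33 without replicate 2 and 0.78 with library size alone as the scaling. DESeq2 called 9 of its 26 genes as higher and 1 as lower with EX527, and 0 as higher and 13 as lower in co-culture. Both co-culture libraries lay under the other 3 in 16 of the 26, or 61.5% against 19.8% of all genes, and at least 4-fold under in 2, where 0.514% of all genes were. ATF3, named above beside NIBAN1, had log2 fold changes of 3.01 (SE 0.34, DESeq2 adjusted p = 2.08e-16) and -3.39 (SE 0.37, DESeq2 adjusted p = 8.33e-14). DDIT3, which encodes the death-promoting factor CHOP, had 2.45 (SE 0.24) and -2.54 (SE 0.26), and the pseudokinase TRIB3 had 2.36 (SE 0.37) and -1.94 (SE 0.41), each called by DESeq2 in both comparisons. ATF4 itself was at 603 and 568 CPM with EX527, 482 and 457 CPM in co-culture and 623 CPM in monoculture, and its differences of 0.32 and -0.41 were not called. The glutathione-degrading enzyme CHAC1, at 0.12 and -0.31, was not called either. Without EX527 replicate 1, edgeR called 20 of the list as higher and 3 as lower with EX527, and 3 as higher and 23 as lower in co-culture.

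In the list of the ATF6 and XBP1 arms, which raise chaperones and degradation factors of the endoplasmic reticulum, the medians were 0.31 with EX527 and -0.92 in co-culture. The first was 0.12 without EX527 replicate 2 and 0.59 with library size alone as the scaling. DESeq2 called 4 of 22 genes as higher and 1 as lower with EX527, and 10 as lower in co-culture. In 11 of the 22 both co-culture libraries lay under the other 3, or 50% against 19.8% of all genes, and in 4 above them. The chaperone HSPA5 was at 1826 and 2101 CPM with EX527, 681 and 666 CPM in co-culture and 5529 CPM in monoculture. Co-culture with EX527 thus lay between the other groups for HSPA5, where LAMP3 and NIBAN1 stood near their monoculture levels. With EX527 against monoculture its log2 fold change was -1.49 (SE 0.22, edgeR adjusted p = 0.614, DESeq2 adjusted p = 0.002). All 22 genes of the list had a negative value in that comparison, with a median of -0.71, against a median of 0.21 over all genes. Without EX527 replicate 1 edgeR called 20 of the 22 as lower than in monoculture, where it called 19.1% of all genes as lower. DNAJB9, HERPUD1 and HSPA5 were called by DESeq2 in both other comparisons, ATF6 only as lower in co-culture, and XBP1 in neither, at -0.50 and 0.14.

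Of the kinases that phosphorylate eIF2alpha, PERK was counted in the PERK and ATF4 list and has no value of its own here. The others were read with the subunits of eIF2 and eIF2B. The medians of this list were 0.37 with EX527, with 8 genes positive and 5 negative, and -0.47 in co-culture. The first was 0.046 without EX527 replicate 2 and 0.64 with library size alone as the scaling. Of these 13 genes DESeq2 called 2 as higher with EX527 and 4 as lower in co-culture. In 5 of the 13 both co-culture libraries lay under the other 3, or 38.5% against 19.8% of all genes, and in 1 above them. The kinases EIF2AK1, EIF2AK2 and EIF2AK4 had values of -0.36, -0.40 and -0.25 with EX527, none called. EIF2S1, the alpha subunit itself, had 0.52 with EX527, not called, and -0.98 in co-culture (SE 0.21, DESeq2 adjusted p = 0.0208).

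Hypoxia targets were at a median of 1.00 with EX527 and of -0.50 in co-culture. DESeq2 called 13 of 20 as higher with EX527 and 6 as lower in co-culture, and both co-culture libraries lay under the other 3 in 14, or 70% against 19.8% of all genes. ADM, a vasodilator peptide, was at 72.1 and 51.7 CPM with EX527, 12.9 and 13.3 CPM in co-culture and 26.6 CPM in monoculture, so that, as with STK32A, both EX527 libraries were above monoculture. The carbonic anhydrase CA9 was at 8.58 and 15.5 CPM with EX527, 5.31 and 5.71 CPM in co-culture and 5.26 CPM in monoculture. Its co-culture libraries did not lie under monoculture, where those of the 3 genes did. NDRG1 was called by DESeq2 in both comparisons, at 2.08 and -1.50, and SLC2A1 and PDK1 in neither.

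Interferon-stimulated genes, a group to which LAMP3 is known to belong, had medians of -0.85 with EX527 and 1.72 in co-culture. DESeq2 called 5 of 22 as lower with EX527 and 4 as higher in co-culture, and both co-culture libraries lay above the other 3 in 13, where they did in 22% of all genes, and under them in 3. IFI6 was at 1.96 and 1.43 CPM with EX527, 10.6 and 11.3 CPM in co-culture and 1.24 CPM in monoculture, an order opposite to that of LAMP3. ISG15 and MX1 were highest in co-culture too, at 12.5 and 12.1 CPM and at 2.63 and 3.20 CPM, and were not called.

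The list of lysosomal proteins and their regulators TFEB, TFE3 and MITF had medians of -0.37 with EX527 and 0.34 in co-culture. The first was -0.18 without EX527 replicate 1 and -0.77 without replicate 2, and -0.11 with library size alone as the scaling. DESeq2 called 3 of 26 as lower with EX527 and 4 as higher in co-culture, and both co-culture libraries lay above the other 3 in 14, against 22% of all genes, and under them in 1, or 3.85% against 19.8%. The protease CTSD was at 60.1 and 139 CPM with EX527, 243 and 216 CPM in co-culture and 109 CPM in monoculture. The calcium channel MCOLN1 was highest in co-culture as well, at 27.9 and 24.8 CPM, against 9.77 CPM in monoculture. In the autophagy list, with medians of -0.0013 (0.29 with library size alone) and -0.27, DESeq2 called 1 of 16 genes in each comparison. It was MAP1LC3B, the autophagosome protein LC3B, at 110 and 117 CPM with EX527, 48.4 and 49.5 CPM in co-culture and 141 CPM in monoculture. In the list of AKT and mTORC1 genes, with medians of -0.05 (0.16 without EX527 replicate 1, 0.21 with library size alone) and -0.41, DESeq2 called 2 of 15 as higher and 1 as lower with EX527 and 2 as lower in co-culture. In 6 of these 15 both co-culture libraries lay under the other 3, or 40% against 19.8% of all genes, and in 4 above them. The autophagy list had 3 of 16 under, or 18.8%. PIK3CA, a catalytic subunit of the kinase that activates AKT, was lower in co-culture at -1.23 (SE 0.22, DESeq2 adjusted p = 0.00455).

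**Figure D5:**
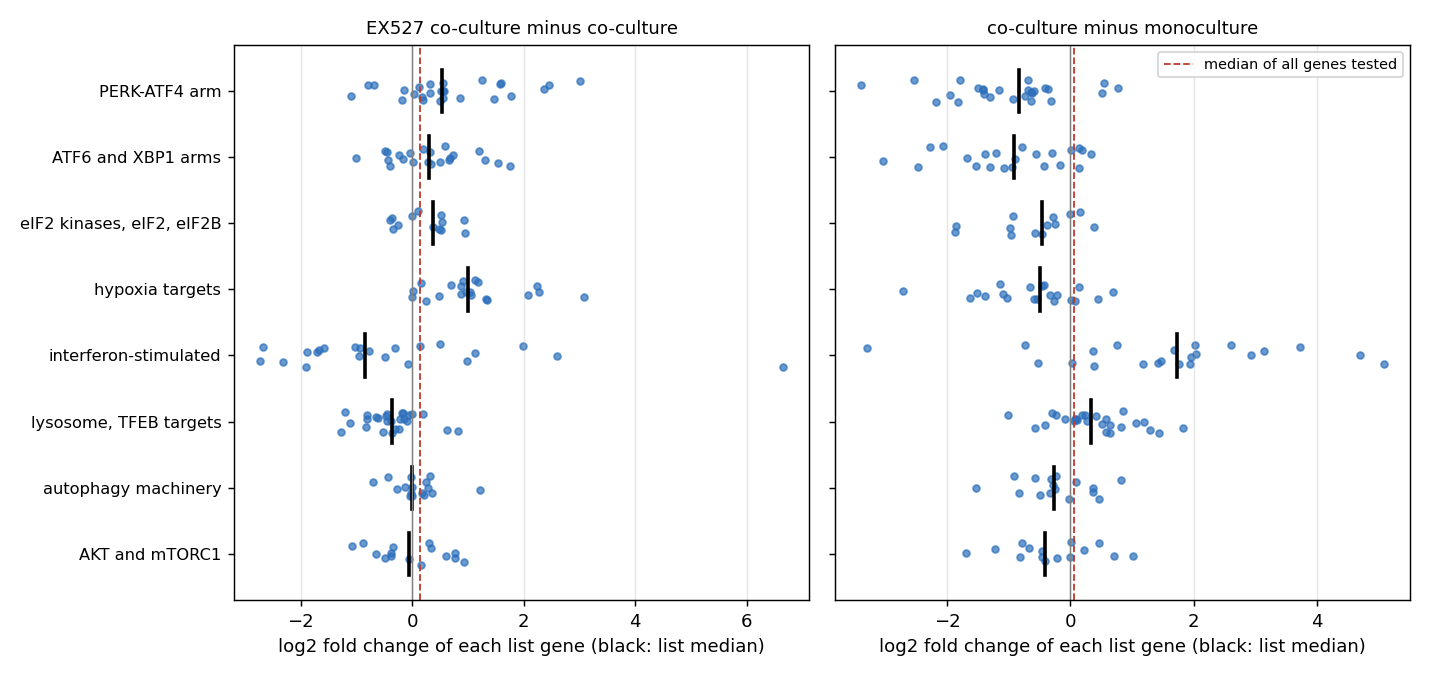
Log2 fold change of every tested gene of 8 lists (points) with the list's median (black) and the median of all genes tested (dashed), for co-culture with EX527 minus co-culture and for co-culture minus monoculture. Hypoxia and PERK-ATF4 medians lie at 1.00 and 0.53 in the first and at -0.50 and -0.83 in the second, and interferon and lysosomal medians have the opposite signs.

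Markers of other cell types were read beside these results. Dendritic cell markers summed to 77.3 and 180 CPM with EX527, 136 and 124 CPM in co-culture and 211 CPM in monoculture over 15 genes. FSCN1, which many other cells express, held 47.7 and 145 CPM of it with EX527, 82.7 and 70.7 CPM in co-culture and 183 CPM in monoculture, and CD83 stayed at 6.39 to 12.7 CPM. Of the 15 genes 11 passed the filter, and DESeq2 called 1 as lower with EX527. CD1C had no read in any library, and CCR7 had 29 and 2 reads with EX527, 2 and 7 in co-culture and 3 in monoculture. Adipocyte markers summed to 170 and 245 CPM, 173 and 171 CPM, and 266 CPM in the same order over 18 genes, with ADIPOQ at 51 and 12 reads with EX527, 4 and 1 in co-culture and 1 in monoculture. Both sums were highest in monoculture, while ADIPOQ had more reads in both EX527 libraries than in the rest. FSCN1 made up most of the dendritic sum in monoculture. The rest of that list together was lower in monoculture than in co-culture. DESeq2 called 4 of the 18 adipocyte markers as higher with EX527 and 3 as lower in co-culture. Over all genes it called 5.45% and 4.35%. In 6 of the 18 both co-culture libraries lay under the other 3, or 33.3% against 19.8% of all genes. They lay at least 4-fold under in 2, against 0.514% of all genes, and above the other 3 in 3, against 22%. LPL, PPARG and CEBPA were called in both comparisons, and CEBPA was at 4.78 and 10.0 CPM with EX527, 1.08 and 0.883 CPM in co-culture and 7.05 CPM in monoculture. LPL, PPARG and CEBPA thus moved in the direction of the 3 genes, but the list of 18 did not move as one. In each comparison 9 of the 18 had a positive and 9 a negative log2 fold change. Fibroblast and preadipocyte markers summed to 191 and 421 CPM, 342 and 323 CPM, and 345 CPM over 15 genes. The part of any such cells in the results was not tested. Of the 15 endometrial epithelial markers, EPCAM was at 203 to 423 CPM and KRT8 at 332 CPM or more in each library, while FOXA2 had no read in 3 libraries. Their sum was 1541 and 2607 CPM with EX527, 6832 and 6239 CPM in co-culture and 2534 CPM in monoculture, higher in co-culture, where the 3 genes were lowest.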

How the data were processed

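The 5 libraries hold poly(A)-selected RNA from Ishikawa cells and were grouped by their labels. Per the series' design text, 500 ng of RNA and 12 PCR cycles were used, and STAR v2 placed the reads on GRCh38.p7 once ribosomal ones had been taken out. The submitters' processing notes also list DESeq2, featureCounts, fastp, MultiQC and FastQC. Which annotation and strand setting served is not given in the sources used here. The authors deposited raw counts per gene. They also deposited a normalized signal, equal to the counts over a size factor of 0.876 to 1.14 for each library, which served here only to check levels.

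The test on counts was that of edgeR 4.0.16 in R 4.3.3 (filterByExpr with a minimum count of 10, TMM, 1 coefficient per group over all 5 libraries, 2 residual degrees of freedom, quasi-likelihood F-test with the edgeR 4 dispersion estimate). Benjamini-Hochberg adjustment ran over 34658 genes with a threshold of 0.05. DESeq2 1.42.0 (Wald test) was run on the same genes. It gave no adjusted p to 6720, 14783 and 26205 of them in EX527 against co-culture, co-culture against monoculture and EX527 against monoculture, which count as not called. Each SE of a log2 fold change is its absolute value over the square root of the F statistic of the edgeR test. Log2 CPM used a prior count of 2. A count of 3 corresponds to 0.0530 to 0.0692 CPM, and intervals hold for counting error alone, as reads copied by PCR are no independent molecules.

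The members and lists were chosen with earlier results of these data known. Besides the members, the text names all family relatives, overlapping genes, neighbours, the nearest 5 genes by profile and genes among the first 5 of each list. CD1C, FOXA2, FSCN1, PPARG and CEBPA lie outside that rule and were named after their values were seen. A few genes that the rule names are not reported here. Positions come from GENCODE 44 and may differ from the authors' annotation. The alternatives were other scalings, no filter, DESeq2, the older edgeR estimate, the replicate number as a block and leaving out each library of both co-cultured groups. The monoculture library, the only one of its group, was never left out.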

Additional observations from a re-analysis of the deposited data

How the results depend on the processing

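For LAMP3, NIBAN1 and STK32A, 27 of 30 alternative fold changes in EX527 against co-culture and 27 of 27 in co-culture against monoculture, which carry no test, moved by less than the replicate spread. In EX527 against monoculture 22 of 27 kept their direction and gave no call. With library size as the only scaling, EX527 against co-culture gave 3.63 for NIBAN1 and 4.43 for STK32A, and EX527 against monoculture gave 0.0045 for LAMP3, reversed from -0.23. Leaving out 1 library gave 4.0 to 4.48 for LAMP3, 3.24 to 3.53 for NIBAN1 and 4.05 to 4.28 for STK32A in EX527 against co-culture, and -4.52 to -4.41, -3.69 to -3.60 and -3.38 to -3.28 in co-culture against monoculture. In EX527 against monoculture it gave -0.51 to -0.038, -0.45 to -0.16 and 0.68 to 0.91, with edgeR adjusted p-values of 2.56e-05 to 0.99, 8.70e-05 to 0.988 and 7.79e-08 to 0.988. The counts of called genes were 0 in edgeR with all libraries. DESeq2 called 3339, 2432 and 100 genes in EX527 against co-culture, co-culture against monoculture and EX527 against monoculture, and the older edgeR estimate called 21, 0 and 0. Leaving out 1 library gave 0 to 24078, 0 to 15861 and 0 to 21330, with the high counts where an EX527 library was left out and the co-culture pair alone set the spread (common dispersion 0.00434 and 0.0045, against 0.264 with all 5). The labels do not say that replicate numbers pair the libraries. With the replicate number as a block EX527 against co-culture gave 867 called genes (368 higher, 499 lower). The replicate differences of both groups correlated at -0.36 across 11232 genes, which are not independent, and with crossed numbers, an alternative chosen after seeing the data, it gave 3382 (1885 higher, 1497 lower). The causes of these differences between settings were not tested. Of 420 alternative list medians, 32 moved by more than the replicate spread.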
